A study of Mus musculus with 10 samples.

Results

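The Hox cluster genes encode homeodomain transcription factors and lie in 4 clusters on 4 mouse chromosomes. They were followed here through open chromatin in mouse colon organoids. Members were all protein-coding genes named Hoxa, Hoxb, Hoxc or Hoxd with a number in the GRCm38 annotation (GENCODE M21), and 38 of 21938 protein-coding genes are described. The Hoxa cluster held 10 of them, the Hoxb cluster 10, the Hoxc cluster 9 and the Hoxd cluster 9. The rule used names only and no measured value.

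Organoids are epithelial cultures grown from crypts, in this study from the whole colon of C57BL/6 mice. AHR KO organoids came from Villin-Cre Ahr fl/fl mice, in which a Cre driven by the Villin promoter deletes the aryl hydrocarbon receptor (AHR), a ligand-activated transcription factor, in the intestinal epithelium, and WT organoids came from their littermates. WENR organoids were analysed in medium with Wnt3a, EGF, Noggin and R-spondin, together with a p38 inhibitor, a TGF-beta receptor inhibitor and nicotinamide. Organoids named d4 ENR were started in the same way and then kept for 4 days in medium with EGF, Noggin and R-spondin but no Wnt3a. The p38 inhibitor, the TGF-beta receptor inhibitor and nicotinamide were additions of the WENR medium and left with Wnt3a. The part of Wnt3a alone in any difference between media therefore cannot be told apart. There were 2 WT WENR, 3 AHR KO WENR, 3 WT d4 ENR and 2 AHR KO d4 ENR libraries, each made by Omni-ATAC-seq (transposition of open chromatin followed by sequencing) on live sorted cells. The comparisons ask how open chromatin at these genes differs with the change of medium and with loss of AHR. The labels do not say which libraries came from separate mice or cultures, so p-values measure only the spread between these libraries.

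Each library was deposited as a list of peaks, stretches of the genome where more sequenced fragments piled up than in the surrounding background. The measure used here is the number of bases that peaks covered in a gene's window, which runs from 2 kb before to 2 kb after its annotated body. Because windows of neighbouring genes overlap in these dense clusters, members share peaks and are not independent. The window of Hoxa3 contains the bodies of Hoxa4, Hoxa5 and Hoxa6, and that of Hoxc5 contains those of Hoxc6, Hoxc8, Hoxc9 and Hoxc10. The window of Hoxd3 contains the whole window of Hoxd4, and in WT d4 ENR both had the same covered bases in every library. In a bulk library, fewer cells with an open site and less opening per cell cannot be told apart.

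Depth and medium moved together. The WENR libraries held 41686181 to 49126792 fragments and 61485 to 65308 peaks that covered 61.8 to 67.2 Mb, whereas the d4 ENR libraries held 30354729 to 36307860 fragments and 33433 to 58359 peaks over 26.2 to 50.1 Mb. Within d4 ENR, the lists covered 26.2 to 41.0 Mb in WT and 46.6 to 50.1 Mb in AHR KO. The part of list size or fragment length in any difference in covered bases between media, or between genotypes in d4 ENR, cannot be told apart from the group. Values per Mb of the list are given beside the main ones. Of 8 colon epithelial markers, 7 had a peak within 1 kb of a start in all 10 libraries, among them Epcam, Cdh1, Krt8, Vil1, Cdx1 and Cdx2. Of 6 fibroblast markers, Col1a1 and Pdgfra had one in all 10 and Col1a2, Dcn and Twist2 in none, and their 6 windows together covered 4289 to 6214 bases in WENR and 1408 to 2970 in d4 ENR. Of the markers of other tissues, 2 of 4 for stomach, 2 of 3 for endothelium, 3 of 4 for immune cells and 1 of 3 for neural and glial cells had a start peak in no library, among them Gkn1, Pecam1, Cd3e and Sox10. The summed windows of the stomach list covered 2229 to 5319 bases in WENR and 0 to 3165 in d4 ENR, and those of the neural and glial list 2233 to 5646 and 0 to 1372. They covered 2360 to 3408 and 271 to 2105 bases for endothelium, and 822 to 1578 and 950 to 1998 for immune cells. Of 3 proximal intestine markers, Gata4 and Pdx1 had a start peak in all 10 libraries. The summed windows of that list covered 10932 to 15041 bases in WENR and 2726 to 9188 in d4 ENR. AHR KO d4 ENR replicate 1 differed from all other libraries in a stretch of the Hoxb cluster, from Hoxb5 to Hoxb2, which is described with the Hoxb genes. The part of other cell types in the Hox values was not tested. The window of Ahr itself was covered more in AHR KO (3250 to 6703 bases) than in WT (1216 to 2544 bases), and peak bases over a whole gene do not check the deletion of an exon.

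Hox genes specify position along the head-to-tail axis of the embryo. Their order on the chromosome follows the order of the body regions in which they act, from paralogue group 1 at the 3′ end (anterior) to group 13 at the 5′ end (posterior), and adult epithelium of the gut keeps regional Hox expression. Polycomb proteins hold silent Hox genes closed, Trithorax proteins keep active ones open, and Pbx and Meis proteins are their DNA-binding cofactors. CDX proteins, relatives of the Hox family, are known to regulate Hox genes in the posterior embryo and intestinal identity in the adult.

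By share of the window, which was not matched for window length, the members were more covered by peaks than most genes. In WT WENR, the median member had 22.7% of its window under peaks, against a median of 4.69% over all protein-coding genes, and 33 of 38 members lay above that gene median. The same medians were 24.5% and 4.77% in AHR KO WENR, 8.55% and 2.49% in WT d4 ENR, and 14.8% and 3.62% in AHR KO d4 ENR. Posterior members (groups 9 to 13) had the highest median share in WT WENR at 28.8%, followed by central members (groups 4 to 8) at 20.5% and anterior members (groups 1 to 3) at 11.6%. The order was the same in AHR KO WENR, at 32.4%, 22.7% and 10.5%, and in both d4 ENR groups. These values describe the 16 posterior, 15 central and 7 anterior members and carry no test. A share also depends on the length of the window. The windows of the anterior Hoxa3, Hoxd3 and Hoxb3 span 48275, 40516 and 28605 bp, and that of the central Hoxc5 53987 bp. The longest posterior window, that of Hoxa10, spans 13658 bp. The part of window length in this order was not tested.

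**Figure D1:**
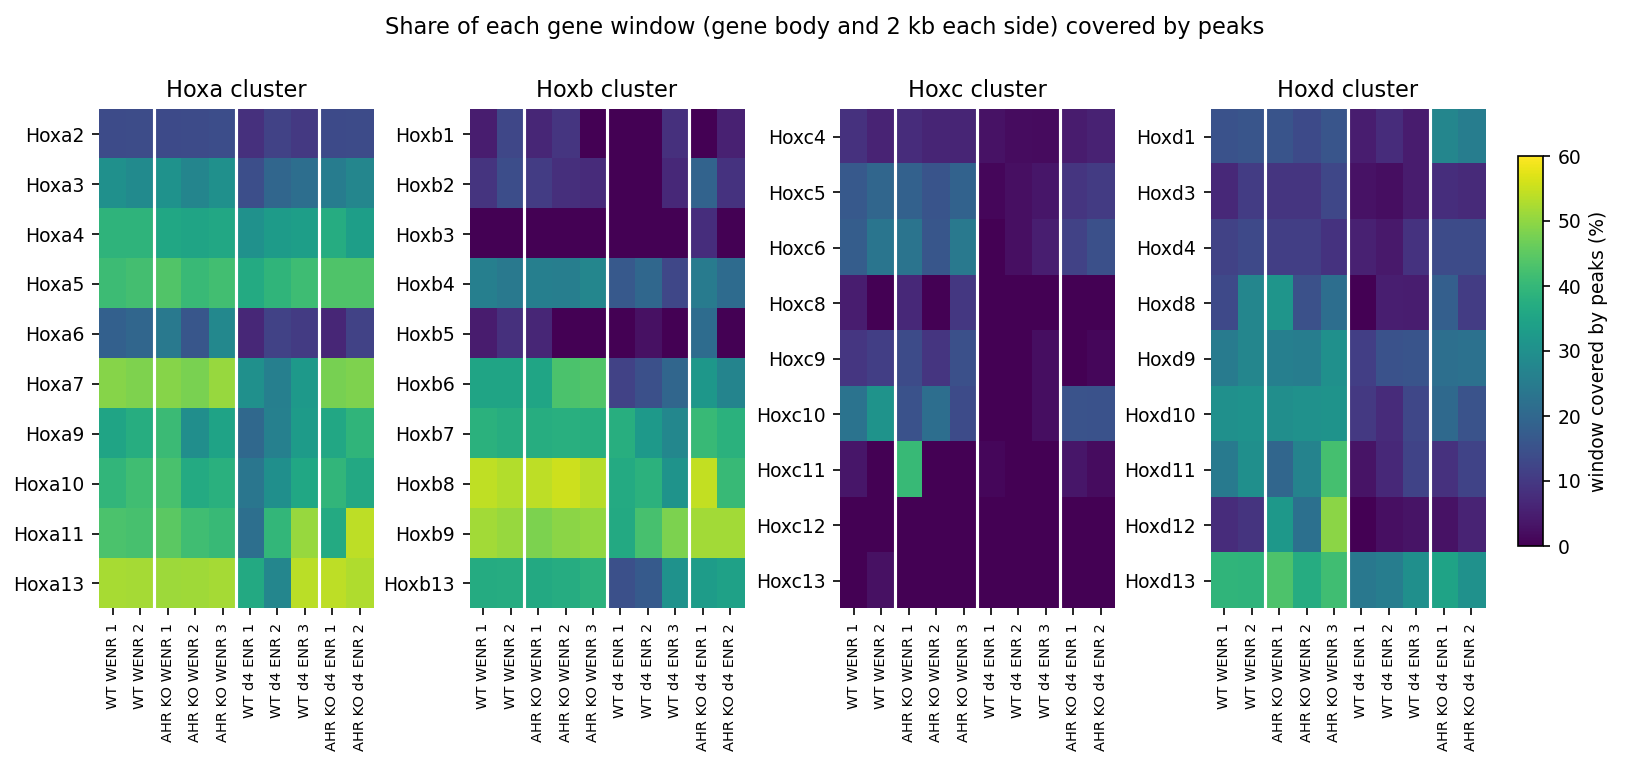
Percent of each gene's window (its body and 2 kb to either side) covered by peaks, for the 38 Hox genes (rows, from anterior to posterior in each of 4 panels) in the 10 libraries (columns, grouped by genotype and medium); the colour scale runs from 0 to 60%. Hoxa7 to Hoxa13 and Hoxb7 to Hoxb9 are among the most covered rows in every group, whereas Hoxb3, Hoxc8, Hoxc12 and Hoxc13 are at 0 in most libraries.

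That gradient was not alike in the 4 clusters. In the Hoxa cluster, the median share in WT WENR was 21.6% for the anterior, 40.3% for the central and 41.7% for the posterior members. In the Hoxb cluster it stepped up from 8.74% (anterior) to 35.0% (central) and 44.1% (posterior). The Hoxc cluster had its lower share at the posterior end in WT WENR, with 12.7% for its central and 1.98% for its posterior members. In AHR KO WENR these medians were 12.2% and 12.5%, but the posterior one, over 5 members, turned on a single library. The window of Hoxc11 was covered to 40.4% in AHR KO WENR replicate 1 and to 0% and 0.041% in replicates 2 and 3. Along the Hoxc cluster, Hoxc10, a posterior gene that patterns lumbar motor neurons, had 26.8% ± 5.57 (SD, n = 2) of its window covered in WT WENR, while Hoxc12 had no peak in any library and Hoxc13, a gene of hair and nail development, had a peak only in WT WENR replicate 2. The Hoxd cluster held 12.1%, 16.5% and 27.2% from anterior to posterior.

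Hoxb8, Hoxa13 and Hoxb9 had the largest shares of their windows covered in WT WENR. Hoxb8 was at 53.7% ± 0.840 (SD, n = 2), Hoxa13, which acts in the hindgut, genital tract and digits, at 52.0% ± 0.167, and Hoxb9 at 51.2% ± 0.611. In WT d4 ENR the same windows were covered to 35.4% ± 4.04 for Hoxb8, 39.2% ± 13.3 for Hoxa13 and 42.4% ± 5.79 for Hoxb9 (SD, n = 3). At the other end, Hoxb3 was covered in 1 library alone.

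The whole span of each cluster, from its outermost described members with 2 kb on each side, differed in the same way. The Hoxa span (chr6:52160417-52262880) was covered to 34.7% ± 0.891 in WT WENR (SD, n = 2), the Hoxb span (chr11:96192316-96370256) to 19.2% ± 0.157, the Hoxd span (chr2:74666310-74767142) to 16.1% ± 2.51 and the Hoxc span (chr15:102919103-103038852) to 11.1% ± 0.597. In AHR KO WENR these were 34.3% ± 1.35, 18.5% ± 0.196, 18.9% ± 3.22 and 11.5% ± 2.10 (SD, n = 3). The ranges of the Hoxc and Hoxd spans did not overlap that of Hoxa in any group.

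**Figure D2:**
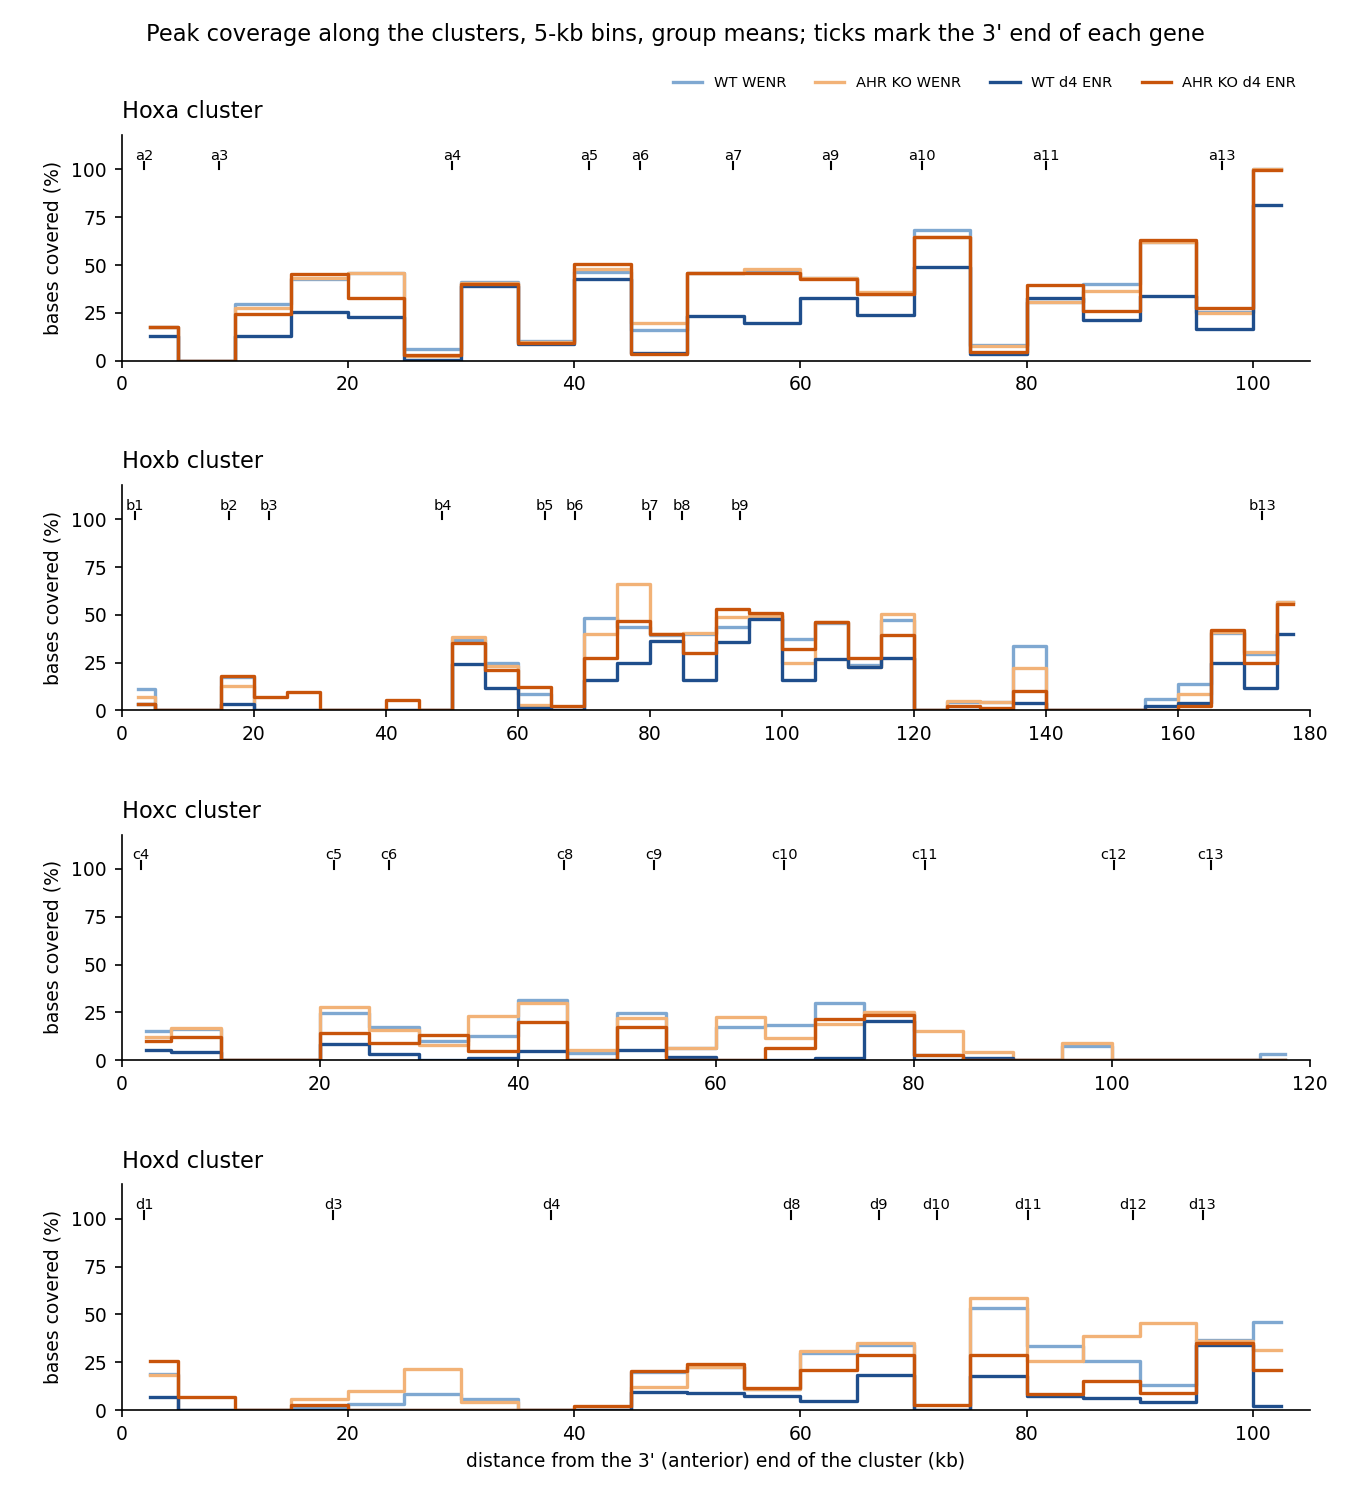
Percent of each 5-kb bin covered by peaks (y axis) against distance in kb from the 3′ (anterior) end of each Hox cluster (x axis), with 1 line for the mean of each of the 4 groups and a tick at the 3′ end of each gene. The Hoxa cluster is covered along most of its length, the bins around Hoxb3 are at or near 0 in WENR, and the line of WT d4 ENR lies lowest or at 0 over most of the Hoxc and Hoxd clusters.

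At the transcription starts, 20 of 38 members (52.6%) had a peak within 1 kb in all 10 libraries, against 54.4% of all genes. Only 2 members, Hoxa2 and Hoxc12, had none in any library (5.3%, against 33.1% of all genes), and 16 had one in some libraries. The starts called in every library comprised 7 of 10 in the Hoxa, 5 of 10 in the Hoxb, 6 of 9 in the Hoxd and 2 of 9 in the Hoxc cluster. In WENR, 27 starts were called in all 5 libraries. In d4 ENR, 20 were called in all 3 WT and 25 in both AHR KO libraries, and 11 were called in no WT and 7 in no AHR KO library. These genotype counts rest on 3 and on 2 libraries, so they cannot be set side by side. The shares over all genes were not counted for single groups. Within d4 ENR, the starts of Hoxb2, Hoxb3 and Hoxb5 were called in AHR KO replicate 1 alone, the library that stands apart there. Hoxc9, which specifies thoracic motor neuron columns, had a start peak in every WENR library but none in d4 ENR. For Hoxd12, a limb and posterior patterning gene, the start was called in the 3 AHR KO WENR libraries alone.

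Peaks of the Hoxa cluster were high but stood little above their surroundings. Their median pileup, the depth of fragments over a peak, was 181 to 220 in the WENR libraries, which is the 87.6 to 88.6 percentile of the peaks in each list, whereas their median fold enrichment over the local background of up to 10 kb was at the 9.5 to 14.2 percentile. In the Hoxc cluster the median pileup was 19.5 to 33.6 (percentile 10.3 to 35.7) and the median fold enrichment was at percentile 16.9 to 27.8. The peak caller sets the background from up to 10 kb around a peak, so fold enrichment in a densely open cluster is relative to open neighbours. Hoxa regions, merged over the 10 libraries, were also long, with a median of 2322 bp over 21 regions, against 873 bp over all 85680 regions. Those of Hoxb, Hoxd and Hoxc had medians of 1005, 1127.5 and 880 bp.

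In d4 ENR, 2 of the 4 clusters passed the test for less coverage, a share near the 52.9% of all clusters and windows. The Hoxc span was covered by 12801 and 13812 bases in WT WENR, 16461, 11505 and 13205 in AHR KO WENR, 2167, 2941 and 3432 in WT d4 ENR, and 7274 and 8214 in AHR KO d4 ENR. Every d4 ENR library was below every WENR library of its genotype, and the span fell 2.88-fold over both genotypes (log2 -1.52, adjusted p = 0.0372, exact permutation test, 2-sided). In the Hoxd span, 14445 and 18026 bases were covered in WT WENR, 17902, 16492 and 22693 in AHR KO WENR, 4994, 5871 and 7995 in WT d4 ENR, and 12983 and 11594 in AHR KO d4 ENR. These groups did not overlap between media in either genotype either, and the span fell 2.00-fold (adjusted p = 0.0372, exact permutation test). Of 15657 clusters and 100-kb windows tested together, 52.9% fell by the same rule, 0.875% rose, and 21.4% of the windows had a lower ratio than Hoxc and 33.4% a lower one than Hoxd. Neither span passed with any 1 library left out, where the smallest p is 0.0333 to 0.05 by exact permutation. With every list shortened to the same 33433 peaks, the log2 ratio was -0.53 for Hoxc and -0.87 for Hoxd, and neither passed.

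The Hoxa and Hoxb spans did not pass the test, though in WT every d4 ENR library was below every WENR library in both. Hoxa was covered by 36182 and 34891 bases in WT WENR, 36153, 33567 and 35717 in AHR KO WENR, 17956, 22627 and 29234 in WT d4 ENR, and 32083 and 34816 in AHR KO d4 ENR. Between media it differed by a log2 ratio of -0.34 (adjusted p = 0.0662, exact permutation test), and the AHR KO groups overlapped. Hoxb was covered by 34356 and 33961 bases in WT WENR, 33018, 33293 and 32599 in AHR KO WENR, 15558, 18690 and 23432 in WT d4 ENR, and 32850 and 29636 in AHR KO d4 ENR, a log2 ratio of -0.45 (adjusted p = 0.0662, exact permutation test). Per Mb of the list, the direction of both turned, with log2 ratios of 0.32 for Hoxa and 0.21 for Hoxb, while Hoxc stayed at -0.86 and Hoxd at -0.33 without passing the threshold. The median over all windows on that scale was -0.01.

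**Figure D3:**
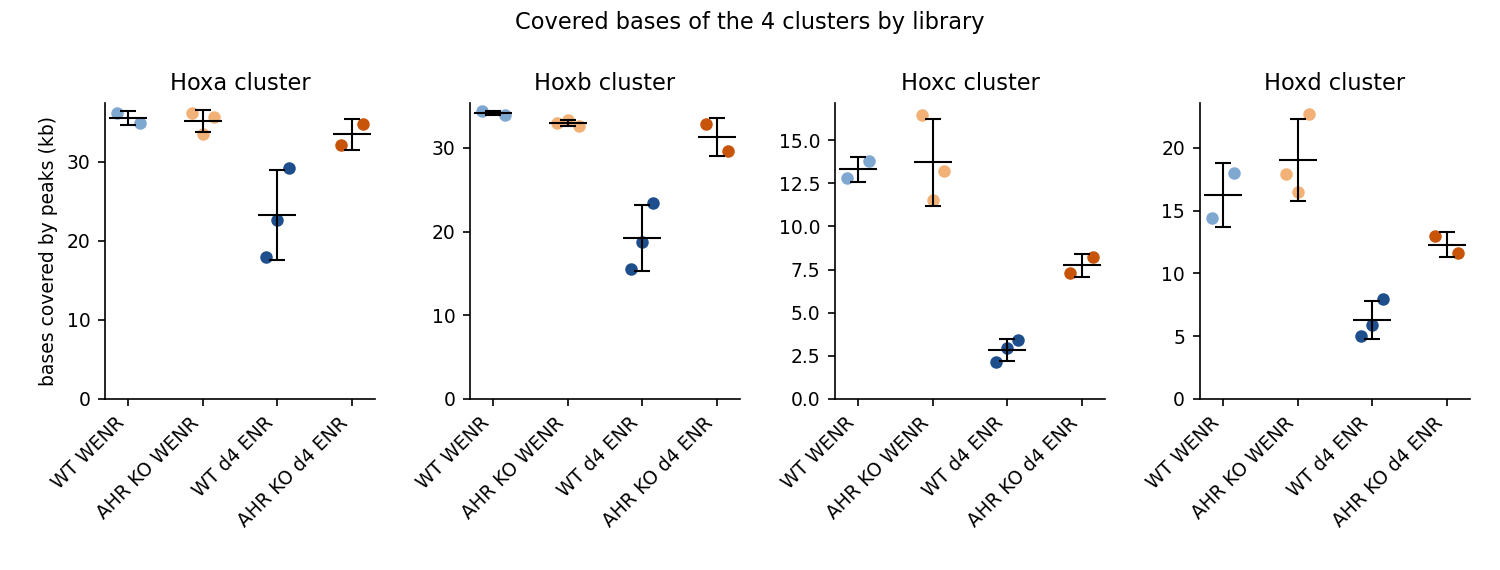
Kilobases covered by peaks in each Hox cluster span (y axis, from 0) in every library (points), by genotype and medium, with bars at the mean and error bars of 1 SD. WT d4 ENR is the lowest group in each cluster on this scale, though per Mb of the list Hoxa and Hoxb were higher in d4 ENR; AHR KO d4 ENR overlaps the WENR libraries in the Hoxa and Hoxb clusters and lies between WT d4 ENR and WENR in the Hoxc and Hoxd clusters.

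Of 37 members with a peak in at least 1 library, 14 fell in d4 ENR at an adjusted p under 0.05, against 49.4% of 16736 protein-coding genes, and 0 rose, against 0.347% of genes. Each of the 14 had a difference at the smallest p the design allows (p = 0.02, adjusted p = 0.0402, exact permutation test). Without adjustment 18 members were lower, against 57.9% of genes, and in mean 34 were, against 92.8%. No member was higher by mean in d4 ENR in both genotypes, as 2.61% of genes were. By cluster, 6 of 9 Hoxd, 4 of 8 Hoxc, 3 of 10 Hoxb and 1 of 10 Hoxa members fell. With 1 library left out, or with lists of equal length, 0 members passed, and neither did any gene of the genome. The median difference was -558.3 bases over the members and -479.3 over all genes tested. Scaled to each list, 5 members (Hoxc5, Hoxc9, Hoxd10, Hoxd11 and Hoxd12) were lower, against 11.3% of genes, and 10 (8 of Hoxa with Hoxb7 and Hoxb9) were higher, against 30.9%. Of the 14, Hoxb4, Hoxb13, Hoxd9 and Hoxd13 were higher in d4 ENR per Mb without passing the test, by 6.96 bases per Mb of the list for Hoxb4, 4.67 for Hoxb13 and 8.20 for Hoxd13, so their direction turns with this scaling.

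In the Hoxc cluster, Hoxc4, Hoxc5, Hoxc6 and Hoxc9 fell. Hoxc5, a cervical and thoracic patterning gene with the most covered bases of the cluster in a long window, had 9052 and 10630 bases in WT WENR, 10121, 8364 and 10245 in AHR KO WENR, 522, 1331 and 1986 in WT d4 ENR and 4970 and 5664 in AHR KO d4 ENR. No d4 ENR library reached the lowest WENR library. Its window spans Hoxc6, a gene of brachial motor neurons, whose own window had 3102 and 4109 bases in WT WENR, 4064, 2810 and 4258 in AHR KO WENR, 0, 447 and 894 in WT d4 ENR and 2096 and 2585 in AHR KO d4 ENR. Again the media did not overlap, though AHR KO d4 ENR stood well above WT d4 ENR.

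Hoxc9 had 1205 and 1415 bases in WT WENR and 1748, 1163 and 1853 in AHR KO WENR, but 0, 0 and 286 in WT d4 ENR and 0 and 133 in AHR KO d4 ENR. In this gene both genotypes were near 0 in d4 ENR. Hoxc4 had 1886 and 1301 bases in WT WENR, 1654, 1348 and 1355 in AHR KO WENR, 617, 436 and 404 in WT d4 ENR and 981 and 1261 in AHR KO d4 ENR. The highest d4 ENR library of Hoxc4 lay just below its lowest WENR library. Of the other Hoxc members tested, Hoxc8, Hoxc11 and Hoxc13 were at 0 to 2943 bases, and Hoxc10 had 1256 to 2794 bases in WENR and 0 to 1403 in d4 ENR.

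A region inside the Hoxc6 gene was missing from WT d4 ENR but not from AHR KO d4 ENR, as were 2 of the 92 cluster regions (2.17%, against 2.84% of all regions). It lies at chr15:103007477-103008474, in an intron of both Hoxc5 and Hoxc6. Its peaks were 534 and 478 bp long in WT WENR, 253, 360 and 578 bp in AHR KO WENR, absent in all 3 WT d4 ENR libraries, and 812 and 494 bp in AHR KO d4 ENR. The 300 bases at its centre (chr15:103007826-103008125, plus strand, GRCm38.p6) are printed because they hold neighbouring copies of the CDX motif TTTATNG, in capitals.
Hoxc6 region: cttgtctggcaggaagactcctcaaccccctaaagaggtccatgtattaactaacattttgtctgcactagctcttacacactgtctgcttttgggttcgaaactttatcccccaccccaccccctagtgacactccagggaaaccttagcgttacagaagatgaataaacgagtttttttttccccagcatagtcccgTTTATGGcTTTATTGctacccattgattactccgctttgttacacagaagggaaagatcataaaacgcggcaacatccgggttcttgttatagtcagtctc
Their GC content is 45%, with 8 CpG sites. The match to the motif is a description of letters and does not show binding.

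The Hoxd cluster had the most members that fell in covered bases, of which only Hoxd10, Hoxd11 and Hoxd12 were also called lower per Mb of the list. Hoxd3, which shapes the first neck vertebra and has the most covered bases of the cluster but, in its long window, the smallest mean share covered, had 2838 and 4340 bases in WT WENR, 3743, 3797 and 5184 in AHR KO WENR, 1167, 862 and 1884 in WT d4 ENR and 3193 and 2891 in AHR KO d4 ENR. WT WENR replicate 1 was below both AHR KO d4 ENR libraries, but within each genotype the media did not overlap. Hoxd9, a limb patterning gene, had 1611 and 1780 bases in WT WENR, 1674, 1653 and 1950 in AHR KO WENR, 717, 987 and 1006 in WT d4 ENR and 1421 and 1448 in AHR KO d4 ENR. All 5 WENR libraries were above all 5 d4 ENR libraries.

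Hoxd10, which acts in hindlimb motor neurons, had 2166 and 2201 bases in WT WENR, 2127, 2183 and 2213 in AHR KO WENR, 717, 534 and 917 in WT d4 ENR and 1477 and 1107 in AHR KO d4 ENR. Hoxd11, needed for the forearm and kidney, had 2803 and 3434, then 2257, 3076 and 4837, then 360, 790 and 1389, and 985 and 1392 bases in the same order of groups. For these neighbours AHR KO d4 ENR was closer to WT d4 ENR than to WENR, and the highest WT d4 ENR library of Hoxd11 lay within the AHR KO d4 ENR range.

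Hoxd12 had 516 and 607 bases in WT WENR, 2141, 1480 and 3322 in AHR KO WENR, 0, 164 and 209 in WT d4 ENR and 201 and 399 in AHR KO d4 ENR. Every AHR KO WENR library exceeded every WT WENR library, whereas in d4 ENR the genotypes overlapped. Hoxd13, the most posterior gene, which acts in the terminal hindgut and digits, had 2854 and 2851 bases in WT WENR, 3158, 2705 and 3038 in AHR KO WENR, 1744, 1862 and 2171 in WT d4 ENR and 2542 and 2211 in AHR KO d4 ENR. It kept peaks in all 10 libraries. Hoxd1, the most anterior gene of the cluster and the one with the fewest covered bases on average, had 933 and 969 bases in WT WENR, 965, 836 and 974 in AHR KO WENR, 289, 469 and 283 in WT d4 ENR and 1701 and 1572 in AHR KO d4 ENR. It was the lowest in WT d4 ENR and the highest in AHR KO d4 ENR.

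The promoters of the posterior genes Hoxd13 and Hoxd9 differed in how much of them was inside a peak. The 300 bases around the start (250 before and 50 after, RefSeq, GRCm38.p6) of Hoxd13 lay wholly in a peak in all 10 libraries. Those of Hoxd9 were covered by 295 to 300 bases in WENR and by 0 to 273 in d4 ENR. Both promoters are on the plus strand, at chr2:74667975-74668274 and chr2:74697513-74697812. They are shown with matches to the AHR core motif GCGTG, on either strand, in capitals.
Hoxd13: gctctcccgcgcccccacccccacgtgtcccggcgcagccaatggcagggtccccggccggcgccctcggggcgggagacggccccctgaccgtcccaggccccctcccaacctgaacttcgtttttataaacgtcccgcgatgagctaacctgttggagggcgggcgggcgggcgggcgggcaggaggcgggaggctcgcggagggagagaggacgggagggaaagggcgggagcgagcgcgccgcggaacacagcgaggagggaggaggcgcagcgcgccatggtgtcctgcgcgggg
Hoxd9: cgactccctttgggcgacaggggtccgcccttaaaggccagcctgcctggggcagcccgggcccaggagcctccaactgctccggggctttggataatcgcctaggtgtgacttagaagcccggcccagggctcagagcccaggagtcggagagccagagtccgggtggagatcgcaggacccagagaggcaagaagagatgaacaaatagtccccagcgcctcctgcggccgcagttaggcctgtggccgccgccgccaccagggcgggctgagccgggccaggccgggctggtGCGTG
The Hoxd13 promoter has 74.3% GC and 37 CpG sites and no match, and the Hoxd9 promoter has 68.3% GC, 20 CpG sites and 1 match. The intronic region of Hoxd3 at chr2:74740236-74741005 had a peak in every WENR library and was missing from all of d4 ENR, its peaks being 335 and 477 bp long in WT and 625, 393 and 698 bp long in AHR KO. Its central 300 bases (chr2:74740471-74740770, plus strand) hold 1 match to the AHR core on the other strand, in capitals.
Hoxd3 region: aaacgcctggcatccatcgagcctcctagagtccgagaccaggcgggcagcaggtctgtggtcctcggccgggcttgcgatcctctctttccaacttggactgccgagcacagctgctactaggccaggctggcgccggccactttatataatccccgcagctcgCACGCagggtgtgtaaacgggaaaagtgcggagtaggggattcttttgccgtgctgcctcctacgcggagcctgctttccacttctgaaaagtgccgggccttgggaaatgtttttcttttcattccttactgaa

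In the Hoxb cluster, Hoxb4, Hoxb6 and Hoxb13 fell in covered bases, and none of them was called lower per Mb of the list. Hoxb6, a thoracic patterning gene, had 4579 and 4596 bases in WT WENR, 4613, 5618 and 5736 in AHR KO WENR, 1543, 1926 and 2598 in WT d4 ENR and 4158 and 3535 in AHR KO d4 ENR. Within each medium, Hoxb6 was higher in every AHR KO library than in any WT library. Hoxb4, known for expanding blood stem cells, had 1901 and 1780 bases in WT WENR, 1904, 1890 and 2034 in AHR KO WENR, 1231, 1477 and 944 in WT d4 ENR and 1836 and 1542 in AHR KO d4 ENR. AHR KO d4 ENR replicate 1 was within the WT WENR range and replicate 2 below it. Without replicate 1, which stands apart in this stretch, the difference between media was -511.9 bases in place of -438.4. Hoxb13, which is expressed in the distal colon and prostate, had 2634 and 2652 bases in WT WENR, 2594, 2646 and 2756 in AHR KO WENR, 1046, 1207 and 2181 in WT d4 ENR and 2365 and 2445 in AHR KO d4 ENR. AHR KO d4 ENR lay above WT d4 ENR and below WENR.

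Hoxb9, with the most covered bases of the cluster, had 4716 and 4637 bases in WT WENR, 4397, 4537 and 4601 in AHR KO WENR, 3336, 3896 and 4394 in WT d4 ENR and 4723 and 4726 in AHR KO d4 ENR, and was not called. The RefSeq promoter of Hoxb4 (chr11:96318017-96318316, plus strand), printed because it holds the AHR core in 2 places, in capitals, was barely inside a peak, with 0 to 63 of its bases covered in WENR and 0 in d4 ENR.
Hoxb4: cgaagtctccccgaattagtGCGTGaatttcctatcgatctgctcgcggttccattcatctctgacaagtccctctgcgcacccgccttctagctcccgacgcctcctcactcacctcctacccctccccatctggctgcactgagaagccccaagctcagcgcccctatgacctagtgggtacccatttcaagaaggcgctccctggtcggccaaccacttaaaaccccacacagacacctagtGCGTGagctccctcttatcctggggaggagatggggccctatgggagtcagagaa
It has 58.0% GC and 14 CpG sites.

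AHR KO d4 ENR replicate 1 stands apart between Hoxb5 and Hoxb2. Of 18 cluster regions called in a single library (19.6% of 92, against 14.4% of all regions), 9 belonged to this library, and 8 of those lay there, with a fold enrichment of 1.76 to 2.45, a -log10 q of 1.30 to 2.16 and a length of 239 to 579 bp. Hoxb3, with the fewest covered bases of the Hoxb cluster, had 2219 bases in that library and 0 in the other 9. For Hoxb5 it had 1443 bases, against 0 to 558 in the other libraries, and for Hoxb2, a hindbrain gene, 1429 bases, against 659 in AHR KO d4 ENR replicate 2. Without this library the difference between media was -343.4 bases for Hoxb2 in place of -150.9, 0 for Hoxb3 in place of 554.8 and -258.8 for Hoxb5 in place of 102. The Hoxb span without it differed between media by a log2 ratio of -0.49 in place of -0.45, and between genotypes in d4 ENR by 0.62 in place of 0.70.

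The Hoxa cluster had a single member that fell, Hoxa6, a central gene. It had 1190 and 1274 bases in WT WENR, 1554, 1026 and 1800 in AHR KO WENR, 433, 766 and 675 in WT d4 ENR and 420 and 760 in AHR KO d4 ENR. The 5 d4 ENR libraries lay below the 5 WENR libraries, and the genotypes overlapped in both media. Its promoter (chr6:52208623-52208922, minus strand, RefSeq) was covered in full in all 5 WENR libraries and by 0, 214 and 0 bases in WT d4 ENR and 0 and 184 in AHR KO d4 ENR. It is printed because every WENR peak list covered it whole, and it holds neither motif.
Hoxa6: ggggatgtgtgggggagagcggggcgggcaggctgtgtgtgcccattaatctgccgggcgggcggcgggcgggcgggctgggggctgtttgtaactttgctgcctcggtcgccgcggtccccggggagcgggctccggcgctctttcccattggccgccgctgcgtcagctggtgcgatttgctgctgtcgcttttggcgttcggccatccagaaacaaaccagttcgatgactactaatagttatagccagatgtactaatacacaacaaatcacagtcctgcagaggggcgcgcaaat
The sequence has 62.0% GC and 26 CpG sites.

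Hoxa3, which patterns the thymus and parathyroid, had the most covered bases of any member, with 14574 and 13858 in WT WENR, 14764, 13126 and 14549 in AHR KO WENR, 6907, 9566 and 10449 in WT d4 ENR and 12130 and 13258 in AHR KO d4 ENR. The AHR KO groups overlapped between media and it did not pass the adjusted threshold (p = 0.04, adjusted p = 0.0686, exact permutation test). Hoxa2, a gene of the second pharyngeal arch, had the fewest of the cluster, with 882 and 890, then 872, 887 and 910, then 529, 758 and 633, and 869 and 879 bases in the same order. The other 7 Hoxa members had 1695 bases or more in every library. In WT, 7 of the 10 Hoxa windows were lower in every d4 ENR than in every WENR library, against 79.5% of genes. In AHR KO 1 was, against 53.6%. Per Mb of the list, 8 Hoxa members were called higher in d4 ENR over both genotypes and 0 lower.

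Relative to WENR, WT d4 ENR kept 65.5% of the covered bases of the Hoxa span, 56.3% of Hoxb, 38.7% of Hoxd and 21.4% of Hoxc, where the median 100-kb window kept 54.2%. AHR KO d4 ENR kept 95.2%, 94.8%, 64.6% and 56.4% in the same order, where the median window kept 76.4%. The difference of the 2 medium effects was a log2 value of 0.54 for Hoxa, 0.75 for Hoxb, 1.40 for Hoxc and 0.74 for Hoxd. Its permutation p was 0.18 to 0.40 and its adjusted p 0.744 to 0.805. Media were permuted within genotypes, so these p-values are exact only where the medium has no effect in either genotype. The difference was not called in any cluster.

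In d4 ENR both AHR KO libraries covered more of every span than any WT library did. The ratio of the means was 1.44-fold for Hoxa, 1.62-fold for Hoxb, 2.72-fold for Hoxc and 1.95-fold for Hoxd, where the median window had 1.41-fold. This separation held in 4 of 4 spans, and in 49.5% of the clusters and windows. With 2 against 3 libraries the smallest p is 0.2, which each span had (adjusted p = 0.400, exact permutation test). In WENR the ratios were 0.989, 0.965, 1.03 and 1.17. Per Mb of the list, the log2 ratios in d4 ENR were -0.019 for Hoxa, 0.15 for Hoxb, 0.89 for Hoxc and 0.43 for Hoxd, in place of 0.52, 0.70, 1.44 and 0.97.

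Gene by gene, 25 of 37 members had every AHR KO d4 ENR library above every WT d4 ENR library, against 52.9% of genes, and 0 the reverse, against 0.245%. Per Mb of the list, the count was 10 (Hoxb2, Hoxb6, Hoxc5, Hoxc6, Hoxc10, Hoxc11, Hoxd1, Hoxd3, Hoxd4 and Hoxd8), against 9.4% of genes, and 5 were the reverse (Hoxa4, Hoxa5, Hoxa6, Hoxa10 and Hoxb9), against 24.8%. Hoxc10 had 0, 0 and 203 bases in WT d4 ENR and 1403 and 1382 in AHR KO d4 ENR. In WENR, Hoxb6 and Hoxd12 were higher without overlap in AHR KO (2 of 37, against 11.5% of genes), and Hoxa4, Hoxb9, Hoxc10 and Hoxd4 were lower (4, against 11.1%). Per Mb of the list in WENR, 2 were higher (8.14% of genes) and 7 lower (17.9%). Over both media 0 members passed the adjusted genotype test, as did 0% of genes, and 3 were higher at an unadjusted p under 0.05 (Hoxb4, Hoxb6 and Hoxd12), against 11.4% of genes, with 0 lower, against 0.114%. Hoxb6 was the only member without overlap in the same direction in both media, as were 6.24% of genes.

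The difference between media was above that of WT in AHR KO for 32 of 37 members, and so it was for 83.8% of genes. None passed the adjusted test, as did 0% of genes. At an unadjusted permutation p under 0.05, 5 members had an AHR KO difference above that of WT, against 3.69% of genes. None had one below it, against 0.00598%. All 5 were higher in d4 ENR by mean in AHR KO and lower in WT. They are Hoxb2, Hoxb7, Hoxb9, Hoxd1 and Hoxd4, and Hoxd4, a gene of the hindbrain and neck, had 2503 and 2830 bases in WT WENR, 2366, 2339 and 1867 in AHR KO WENR, 1167, 862 and 1884 in WT d4 ENR and 2922 and 2891 in AHR KO d4 ENR. For Hoxb9, Hoxd1 and Hoxd4, every WT library was lower in d4 ENR than in WENR and every AHR KO library was higher. This held per Mb of the list for Hoxd1, while in WT Hoxb9 was higher in d4 ENR without overlap and Hoxd4 overlapped. In WT, 28 of 37 members lay below WENR without overlap (79.5% of genes) and 0 above (0.466%). In AHR KO, 14 lay below (53.6%) and 5 above, Hoxa13, Hoxb7, Hoxb9, Hoxd1 and Hoxd4 (5.96%). Per Mb of the list, 10 lay below and 11 above in WT (19.3% and 40.6% of genes), and 6 below and 16 above in AHR KO (19.3% and 42.4%).

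**Figure D4:**
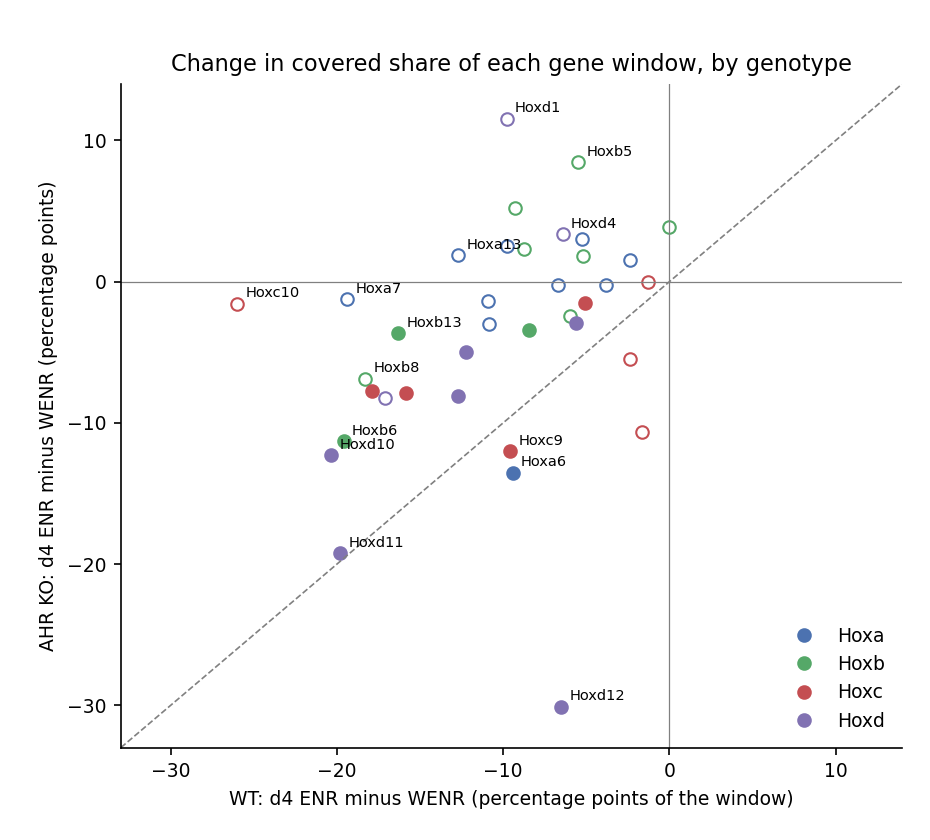
Difference d4 ENR minus WENR in the percent of a member's window covered, in WT (x axis, percentage points) against AHR KO (y axis, percentage points), for the members with a peak; filled points are the 14 that fell in d4 ENR and the dashed line marks an equal change in both genotypes. Most points lie above the line, Hoxd1 is highest on the y axis and Hoxd12 lowest.

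Over the whole clusters, 92 regions were found, of which 34 (37.0%) were called in all 10 libraries, against 32.9% of 85680 regions. Of these 34, 15 lay in Hoxa, 11 in Hoxb, 6 in Hoxd and 2 in Hoxc. Present throughout WENR and absent throughout d4 ENR were 3 (3.26%, against 5.46%), the Hoxd3 intron above, a region of 1386 bp at the start of Hoxc9 (chr15:102976454-102977839), and one of 611 bp between Hoxc12 and Hoxc11 (chr15:102942955-102943565). None showed the reverse (0, against 0.317%). Called in both AHR KO but no WT d4 ENR library were 2 (2.17%, against 2.84%), both in the Hoxc cluster, the Hoxc6 region above and one at chr15:102971424-102972643, whose peaks had lengths of 645 and 1210 bp (WT WENR), 614, 633 and 523 bp (AHR KO WENR) and 226 and 422 bp (AHR KO d4 ENR). Both of them were also called in all 5 WENR libraries, as were 1.68% of regions. By genotype, 1 region, in a Hoxd3 intron (chr2:74738567-74739191), was called in all 3 AHR KO but no WT WENR library (1.09%, against 1.18%), 0 were the converse (against 0.759%), and 0 were called in all 3 WT but no AHR KO d4 ENR library (against 0.0864%). The CDX motif TTTATNG stood in the central 300 bases of 24 of the 92 regions (26.1%, against 19.9% of all regions) and the AHR core GCGTG in 29 (31.5%, against 21.9%), on either strand, shares that are descriptions. Among 24 RefSeq promoters of 22 members, 2 (8.33%) held the CDX motif, against 10.9% of 32851 promoters, and 9 (37.5%) the AHR core, against 32.4%.

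The clusters also carry miRNA genes that repress Hox mRNAs, which are printed because their seeds (bases 2 to 8, in capitals) fall into 2 families.
miR-10a-5p: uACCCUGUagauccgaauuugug
miR-10b-5p: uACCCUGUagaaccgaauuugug
miR-196a-5p: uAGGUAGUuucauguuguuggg
miR-196b-5p: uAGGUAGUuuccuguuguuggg
The hairpin of miR-10a lies next to Hoxb4 at chr11:96317165-96317274, and its 2 kb on each side had 1002 and 877 covered bases in WT WENR, 994, 979 and 1021 in AHR KO WENR, 688, 688 and 656 in WT d4 ENR and 1149 and 735 in AHR KO d4 ENR, the first of these in the library that stands apart here. The other member of its family, the miR-10b hairpin at chr2:74726070-74726137 near Hoxd4, had 230 bases in AHR KO d4 ENR replicate 1 and 0 elsewhere. The miR-196a sequence is encoded by hairpins in the Hoxb and Hoxc clusters, of which the one at chr11:96265164-96265265 had 333 to 1846 bases over the 10 libraries. The hairpin at chr15:102973350-102973434 had 645 and 1210, then 614, 633 and 523, then 0, 0 and 0, and 226 and 422 bases in the same order. These bases are those of the second Hoxc region named above, which was missing from WT d4 ENR. The miR-196b hairpin in the Hoxa cluster (chr6:52230081-52230165) had 1052 to 1401 bases in every library.

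Genes that act with or upstream of the Hox genes were counted the same way. The background is the 49.4% of all genes that fell. Of 9 cofactor genes, 5 fell in d4 ENR, with a median of -1223 bases over the 9 (all genes: -479.3). Pbx3 went from a mean of 10026 to 4942 bases and Pknox2 from 3575 to 1252, the largest differences of the called ones, and Meis1 from 4241 to 3088 and Meis3 from 859 to 219, the smallest. Of 16 Polycomb genes 4 fell (median -525 bases), among them Eed from 3453 to 2785, Cbx7 from 7346 to 3418 and Phf1 from 2769 to 2217, and all 16 had a start peak in all 10 libraries. Of 6 Trithorax and H3K27 demethylase genes 3 fell (median -320 bases), Wdr5 from 1594 to 1473, Kdm6a from 4860 to 2279 and Kdm6b from 4278 to 4052. Of 7 tested ParaHox and Evx genes, relatives at or outside the cluster ends, 3 fell (median -808 bases), Evx1 from 2065 to 1441, Evx2 from 4491 to 2195 and Pdx1 from 1300 to 841. In the same list, Cdx2, which sets intestinal identity, had 4459 bases in WENR and 3651 in d4 ENR (adjusted p = 0.0686, exact permutation test). All 5 tested genes of retinoic acid and Gdf11 signalling fell (median -1632 bases), among them Rarb from 9472 to 5389, Rara from 9181 to 6750, Aldh1a2 from 2807 to 1372 and Gdf11 from 1440 to 657. No gene of these lists was called higher in covered bases, and 0 differed by genotype after adjustment. On the per Mb scale, the calls lower and higher were 3 and 1 for the cofactors, 1 and 6 for Polycomb, 0 and 4 for Trithorax and demethylases, 0 and 3 for ParaHox and Evx, and 0 and 1 for the signalling genes (all genes: 11.3% lower and 30.9% higher).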

How the data were processed

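Omni-ATAC-seq was run by the authors on live sorted cells of mouse colon organoids, 10 libraries in 4 groups of genotype and medium. The authors trimmed reads, aligned them to GRCm38 with BWA (nf-core pipeline) and ran MACS 2.2.7.1 for broad peaks, 1 library at a time, on paired-end fragments with no control library, a broad q cutoff of 0.1, a narrow one of 0.05 and a local background of 10 kb. The deposited lists give each peak's length, its pileup (signal), its fold enrichment (ratio) and its -log10 p and q. The lists hold no read counts, so the count test of the study could not be run.

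Each library gave 1 value per gene, the bases covered by peaks from 2 kb before to 2 kb after the gene body, and 1 per cluster span and per 100-kb autosomal window. Media were compared by an exact permutation test within genotypes and genotypes by one within media (2-sided, 100 arrangements, smallest p = 0.02), with Benjamini-Hochberg adjustment over the 16736 protein-coding genes with a peak, or over clusters and windows (log2 of a ratio after adding 1 base). Within 1 medium the smallest p is 0.2. The difference between the genotypes in the medium effect was tested by permuting media within genotypes. That p-value is exact only where the medium has no effect in either genotype. The test between media was checked on simulated coverage with independent noise in each library. No shift in list size between groups was simulated, so the check does not cover one. Consensus regions are peaks merged over libraries (overlap of at least 1 base). Python 3.11.15 with numpy 2.4.6, pandas 2.3.3 and scipy 1.17.1 was used.

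The members, the gene lists and the motifs were chosen with earlier results of these data known. Named with every library's value are the most and the least covered member of each cluster, members called by a test and members whose genotypes did not overlap in the same direction in both media; others are given by range, or because a later result turned on them. 1 gene that the rule covers and some genes of the lists are not reported here. Promoter and miRNA sequences are from RefSeq (GRCm38.p6); 22 of 38 members matched the promoter table.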

Additional observations from a re-analysis of the deposited data

Results flagged for a closer look

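The difference between media was unlike in the 2 genotypes for 5 members at an unadjusted p under 0.05. The test permuted media within genotypes, so its p-values are exact only where the medium has no effect in either genotype. None passed after adjustment over all genes (adjusted p = 0.823, permutation test). The AHR KO difference exceeded the WT difference by 1086.5 bases for Hoxb2 (-694.2 in WT and 392.3 in AHR KO, permutation p = 0.04) and by 527.2 bases for Hoxb7 (-392.7 and 134.5, permutation p = 0.04). The excess was 1014 bases for Hoxb9 (-801.2 and 212.8), 1315.5 for Hoxd1 (-604 and 711.5) and 2078 for Hoxd4 (-1362.2 and 715.8), each at a permutation p of 0.02, the smallest the design allows. For Hoxb9, Hoxd1 and Hoxd4, every WT library was lower in d4 ENR and every AHR KO library higher, which per Mb of the list held for Hoxd1 but not for Hoxb9 or Hoxd4. Of Hoxb2, the AHR KO mean in d4 ENR rests on 1429 bases in replicate 1, the library with 8 peaks of its own between Hoxb5 and Hoxb2, and 659 in replicate 2. Of all genes, 3.69% had an AHR KO difference above that of WT at the same unadjusted threshold.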

How the results depend on the processing

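Hoxc and Hoxd fell in d4 ENR under a -log10 q of at least 5 and with 20 kb on each side, but at other settings lost the adjusted call in exact permutation tests: with every list shortened to 33433 peaks (Hoxc -0.53, Hoxd -0.87), per Mb of the list (-0.86 and -0.33), and with any 1 library left out (-1.60 to -1.44 and -1.11 to -0.92), where the smallest p is 0.0333 to 0.05. Per Mb, Hoxa (0.32) and Hoxb (0.21) turned to higher in d4 ENR, and the Hoxa genotype ratio in d4 ENR was -0.019 on the log2 scale. Calls were gained by Hoxa with 20 kb (-0.47), Hoxb with 20 kb (-0.54) and Hoxb at a -log10 q of at least 5 (-0.81). Of the 14 members lower in d4 ENR by the exact permutation test, 0 were left within 1 kb of starts (15 unadjusted), with shortened lists (9 unadjusted) or with 1 library left out (0 to 0, and 0 to 17 unadjusted), settings at which 0% of genes passed, and 5 per Mb, with 10 higher.

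Members with AHR KO above WT in WENR, 2 in the main setting, were 1 in the gene body alone (11.8% of genes), 5 with 5 kb (11.8%), 0 with shortened lists (8.32%) and 2 to 7 with 1 library left out (11.6% to 26.4%). In d4 ENR, against 25 (52.9%), they were 13 with shortened lists (51.3%), 10 per Mb (9.4%) and 25 to 29 with 1 library left out (52.9% to 73.6%). By genotype over both media, 0 members passed at each setting of the exact permutation test, and 0 to 7 were higher unadjusted.

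Whether replicate numbers pair the libraries could not be decided. In a group of 2 libraries the deviations from the group mean are mirror images, so their correlations say little. Of 13 same-numbered pairs 5 had a correlation of deviations above 0.1 (range -0.143 to 0.401), and 5 of 10 libraries correlated best with their own number. In the replicate block fit of 8 libraries, whose smallest p is 0.125, Hoxc was at -1.61 and Hoxd at -1.03. In that fit 0 members were lower in d4 ENR (0% of genes). In d4 ENR, 30 members were higher in AHR KO than in WT in every same-numbered pair of the block (80.3% of genes). That rule lets the groups overlap, so its count cannot be set beside the counts without overlap given above.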
